A study of Mus musculus with 8 samples.

Results

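The miR-379/miR-410 cluster is a run of microRNA (miRNA) hairpins on mouse chromosome 12, in the imprinted Dlk1-Dio3 domain. Members were every annotated hairpin from Mir379 to Mir410 (chr12:109709060-109743795, build GRCm38), 43 of the 1227 miRNA hairpins in the annotation, and both arms of each were counted by their first 20 bases. Of the 43, 38 lie on the plus strand and 5 on the minus strand, and 5 carry only a predicted gene name and had no arm that could be counted. The others gave 74 mature arms, of which 60 had at least 10 reads over all libraries, 8 had 1 to 9 reads and 6 had none. These 60 stand among 441 mature miRNAs with at least 10 reads.

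The RNA came from NIH-3T3, an immortalised mouse embryonic fibroblast line, in 8 small-RNA libraries from 2 experiments. The serum experiment took cells from 10% serum, withheld it for 48 h and then added 20% serum; libraries are from 0 h (labelled G0, the resting state outside the cell cycle), 12 h (G1), 16 h (S), 20 h (G2/M) and 24 h (G1). The contact experiment started from a sparse plating, at 12% confluency, with libraries from day 0 (labelled asynchronous), day 3 and day 5 (the latter both labelled G0, by contact inhibition). Its growth medium also held 10% serum. Each condition is 1 library, so differences between single libraries carry only a counting interval, and the 1 test between groups sets the 3 libraries labelled G0 against the other 5.

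Hairpins of this kind are transcribed from the maternal chromosome as long RNAs and cut by Drosha and Dicer, after which a single strand of each duplex, the 5p or the 3p arm, is usually kept in Argonaute. Bases 2 to 8 of the kept strand, the seed, pair with target messages. The cluster is found in placental mammals and is known for its activity in brain, where its member miR-134 limits dendritic spine size, and where several members of the miR-376 family are substrates of A-to-I RNA editing. The annotated host gene Mirg covers only 14 of the 43 hairpins: 8 of these overlap an exon of at least 1 Mirg transcript and 6 lie in introns only, while 29 hairpins lie before its annotated start.

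The mature sequences of the 10 arms with the highest mean level, with 4 further arms that differed between libraries, are printed from RefSeq (GRCm38.p6, plus strand, in order along the cluster), with the seed in capitals. They show how little the seeds overlap: in this set only miR-379-3p, listed later, repeats a seed, that of miR-411-3p.
miR-379-5p (chr12:109709065-109709085): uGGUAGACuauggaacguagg
miR-411-5p (chr12:109710190-109710210): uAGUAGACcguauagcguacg
miR-411-3p (chr12:109710225-109710246): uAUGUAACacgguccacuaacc
miR-299a-3p (chr12:109710676-109710697): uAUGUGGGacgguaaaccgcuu
miR-494-3p (chr12:109715367-109715388): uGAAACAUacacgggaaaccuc
miR-495-3p (chr12:109718795-109718816): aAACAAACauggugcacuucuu
miR-667-3p (chr12:109720061-109720083): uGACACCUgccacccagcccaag
miR-376b-3p (chr12:109723508-109723528): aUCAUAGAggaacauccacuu
miR-376a-3p (chr12:109723824-109723844): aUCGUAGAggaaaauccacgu
miR-300-3p (chr12:109724363-109724384): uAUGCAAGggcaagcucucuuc
miR-382-5p (chr12:109733781-109733802): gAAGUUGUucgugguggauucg
miR-154-3p (chr12:109738474-109738495): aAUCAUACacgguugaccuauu
miR-541-5p (chr12:109742422-109742446): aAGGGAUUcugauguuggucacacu
miR-410-3p (chr12:109743764-109743784): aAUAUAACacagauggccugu

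The serum libraries held 136912 to 889044 miRNA reads, 1.84% to 12.6% of all their reads, and the contact libraries 324580 to 459217, 45.9% to 57.3%. Read variety differed too: at a common depth of 7299 member reads, 135 distinct member inserts were seen at 12 h of serum and 208 at 0 h, against 275 to 479 in the other serum libraries and 394 to 512 in the contact libraries. At 12 h, 19 of the 60 arms had no read. Levels are given as CPM, reads scaled to a common total of miRNA reads per library, after TMM scaling, a factor that sets most miRNAs equal between libraries. Fibroblast-enriched miRNAs (miR-199a, miR-214, miR-143 and miR-145a) summed to 44686 to 311956 CPM. The sum was highest on contact day 5, where miR-199a-3p made up 256494 CPM of it, while miR-214-3p (2009 CPM) and miR-145a-5p (441 CPM) were at their lowest of the 8 libraries. The neuronal miR-124-3p had 8 reads in all, 4 of them at serum 16 h, and a neural list of 6 arms summed to 329 to 945 CPM. An epithelial list (the miR-200 family) summed to 2236 CPM at serum 0 h and to at most 9 CPM in the other 7 libraries. The blood-cell miR-142a-3p had 62 reads at serum 0 h and 0 in the others. Inserts under 16 bases were 28.1% of the reads at serum 0 h and 0.568% to 1.84% elsewhere. Other libraries stood out in other lists. A pluripotent list (the miR-290 and miR-302 families) summed to 700 CPM at serum 12 h and to 0 to 170 CPM elsewhere. A muscle list summed to 910 CPM on contact day 0 and to 134 to 369 CPM elsewhere. The part of RNA from other cells, or of degraded RNA, in the results was not tested. Without serum 0 h the G0 test described later called 0 members. That cannot measure this part, because the test with all libraries called 0 too.

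The cluster gave 2.41% to 6.39% of all miRNA reads. In the serum experiment its share was 5.59% (95% exact binomial interval 5.50 to 5.68) at 0 h, 6.39% (6.28 to 6.50) at 12 h, 4.72% (4.67 to 4.76) at 16 h, 5.31% (5.21 to 5.42) at 20 h and 5.33% (5.21 to 5.45) at 24 h. In the contact experiment it was 2.41% (2.36 to 2.46) on day 0, 2.50% (2.45 to 2.54) on day 3 and 4.29% (4.24 to 4.35) on day 5. Day 5 stood above the other contact libraries, and every serum library stood above every contact library. Experiment and library preparation cannot be told apart in that last difference. The 23 hairpins between Dlk1 and Dio3 that lie outside the cluster gave 1.93% to 2.71% in the serum libraries and 0.488% to 0.825% in the contact libraries. These intervals cover counting error only, since the reads carry no molecular identifiers. In such bulk RNA, fewer cells expressing a miRNA and less of it per cell cannot be told apart.

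**Figure D1:**
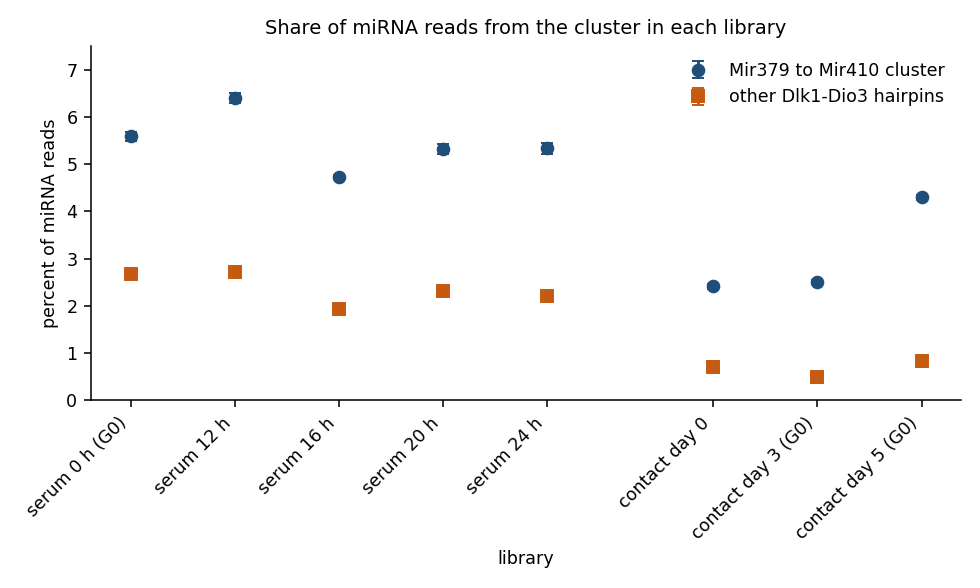
Percent of miRNA reads (vertical axis) from the cluster (circles) and from the other Dlk1-Dio3 hairpins (squares) in each of the 8 libraries; bars are 95% exact binomial intervals. The cluster lies between 4.72% and 6.39% in the serum libraries, at 2.41% and 2.50% on contact days 0 and 3, and at 4.29% on contact day 5.

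Reads were concentrated in few members: the 5 arms with most reads held 47.8% of 123548 member reads, and 38 arms were read in every library. miR-411-5p had the highest mean level. It measured 4289.6 at 0 h, 3292 at 12 h, 5671 at 16 h, 3699 at 20 h and 3702 at 24 h CPM in the serum experiment and 6993 on day 0, 4996 on day 3 and 23876 on day 5 in the contact experiment, where day 5 stood far above all other libraries. Its partner arm miR-411-3p measured 3799.9 at 0 h, 6287 at 12 h, 3304 at 16 h, 4134 at 20 h and 3599.6 at 24 h CPM after serum and 1551 on day 0, 1123 on day 3 and 3662 on day 5 in the contact experiment. That arm was highest at 12 h, where miR-411-5p was lowest.

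miR-379-5p, from the first hairpin of the cluster, measured 2599 at 0 h, 1671 at 12 h, 3381 at 16 h, 1983 at 20 h and 1779 at 24 h CPM in the serum libraries. It measured 1726 on day 0, 2118 on day 3 and 8265 on day 5 in the contact libraries, again highest on day 5. miR-541-5p measured 4352 at 0 h, 5775 at 12 h, 5699.6 at 16 h, 6222 at 20 h and 7096 at 24 h CPM in serum. In the contact libraries it measured 6484 on day 0, 2676 on day 3 and 4010.2 on day 5 CPM. The 0 h library was the lowest of the serum series, and both contact G0 libraries were below day 0.

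miR-382-5p measured 2608 at 0 h, 2087 at 12 h, 1673 at 16 h, 1539.5 at 20 h and 1815 at 24 h CPM in serum and 4338 on day 0, 2223 on day 3 and 2453 on day 5 in the contact series, with contact day 0 the highest library. miR-410-3p, from the last hairpin, varied least of the 10, at 1884 at 0 h, 3296 at 12 h, 2047 at 16 h, 2422 at 20 h and 1972 at 24 h CPM in serum and 2329.5 on day 0, 2291 on day 3 and 2043 on day 5 in the contact series. miR-494-3p measured 1747 at 0 h, 1331 at 12 h, 1384 at 16 h, 2377 at 20 h and 2172 at 24 h CPM in serum and 905 on day 0, 669.8 on day 3 and 609.8 on day 5 in the contact series. The contact libraries were thus all below the serum libraries for miR-494-3p, and they overlapped them for miR-410-3p.

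Members did not move as a block in the serum experiment. Among member arms with at least 100 reads in either library of a pair, the log2 ratio of 16 h over 0 h had a median of 0.10 and an SD over 39 arms of 0.86, beside 0.06 and 1.68 over all 216 miRNAs. For 24 h over 20 h the member median was -0.10 (SD 0.42, 24 arms) and that of all miRNAs -0.08 (SD 0.61). The widest scatter was in 12 h over 0 h, with an SD of 2.63 in members and 2.53 in all miRNAs, and in 16 h over 12 h, with 2.45 and 2.75. Of the variance of member log2 levels across the 5 serum libraries, 1.88% lay in the mean profile of the 28 members compared, where arms moving independently with equal variance would give 3.57%. All 165 miRNAs had 6.54%, against 0.606% for independent arms. Without the 12 h library, a comparison added after the data were seen, the shares were 0.871% over 29 members (3.45% for independent arms) and 1.35% over all miRNAs (0.606%).

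In the contact experiment the mean profile of 20 member arms held 16.6% of their variance, where independent arms would give 5%. All 138 miRNAs had 1.48%, against 0.725%. The 7 upstream Dlk1-Dio3 arms had 13.0%, against 14.3%. With 3 libraries no test was made of these shares. Day 5 over day 3 had a member median of 0.41 (SD 1.08, 24 arms), 18 of them positive, and the median of all 159 miRNAs was 0.00. Day 5 over day 0 had a member median of 0.62 (SD 1.66) beside 0.30 (SD 1.90), and day 3 over day 0 had -0.15 (SD 1.22) beside -0.04 (SD 1.19). Scaling to total miRNA reads shifted all miRNAs by -0.35 for day 5 over day 3 and by 0.30 for day 3 over day 0, leaving the members 0.41 above and 0.10 below the median of all miRNAs, as with TMM. The member median itself turned sign under that scaling for day 3 over day 0, to 0.16, and for serum 16 h over 0 h, to -0.10. With total reads 13 of 24 arms, not 18, were positive for day 5 over day 3.

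**Figure D2:**
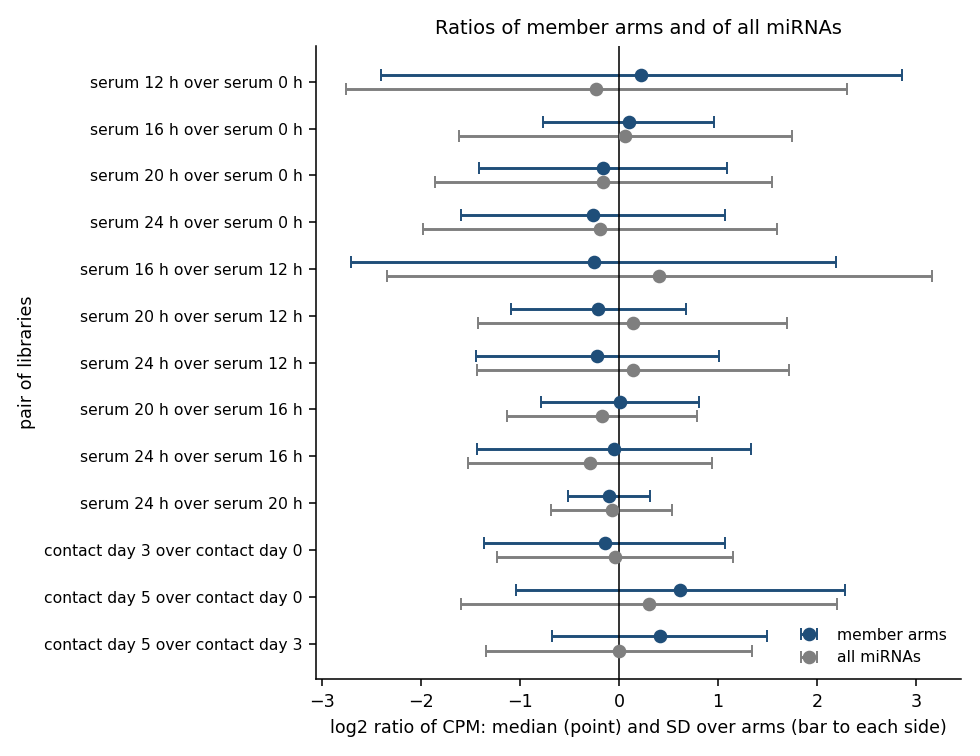
Median log2 ratio of CPM (points) and SD over arms (bars to each side) for every pair of libraries within an experiment, for member arms (dark) and for all miRNAs (grey). Member medians lie near 0 beside wide bars in the serum pairs, and the 2 pairs with contact day 5 have member medians of 0.41 and 0.62.

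**Figure D3:**
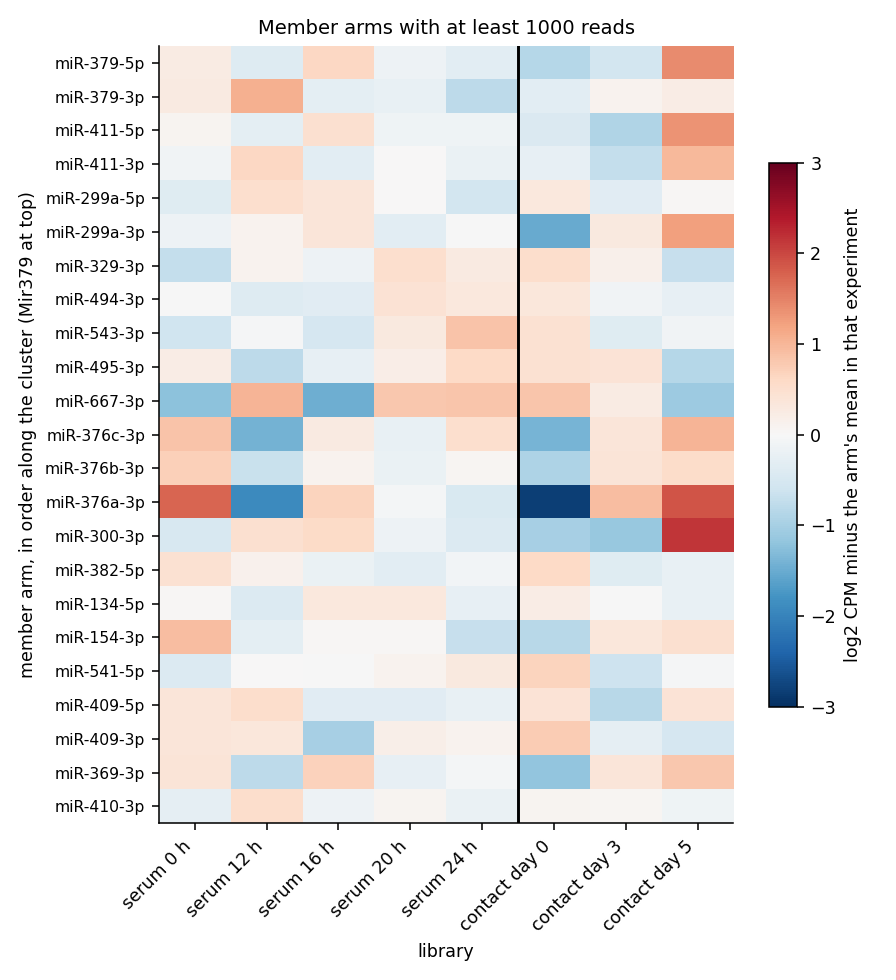
Log2 CPM minus the arm's own mean within its experiment, for the 23 member arms with at least 1000 reads, in order along the cluster; red is above and blue below that mean. The rows of miR-376a-3p, miR-376b-3p, miR-376c-3p and miR-154-3p are red at serum 0 h and blue on contact day 0, while neighbours such as miR-667-3p show the opposite.

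Set across all 8 libraries, no member passed the test between the G0 libraries and the others. edgeR's quasi-likelihood test with experiment as a term called 0 of 54 member arms at an adjusted p under 0.05 (background 2 of 349 miRNAs, 0.573%). At an unadjusted p under 0.05 the members numbered 6 (background 9.74%), 4 higher in G0 and 2 lower. The median log2 change was -0.11 over members (SD 1.23) and -0.26 over all 349 (SD 1.60), so the cluster was centred near the other miRNAs. DESeq2, on the same table, called 2 members.

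The member with the lowest p was miR-376a-3p, of the miR-376 family in the middle of the cluster. It measured 2435 at 0 h, 193 at 12 h, 1163 at 16 h, 702 at 20 h and 532 at 24 h CPM in serum and 66 on day 0, 923 on day 3 and 1781 on day 5 in the contact series. Serum 0 h was the highest of its series, both contact G0 libraries were above day 0, and the groups overlapped because serum 16 h exceeded contact day 3. Its log2 change was 2.98 (SE 0.77), with an edgeR adjusted p of 0.0949, and without serum 0 h it was 4.36 (edgeR adjusted p = 0.18). DESeq2 called it, as did edgeR with total-read scaling, without the filter on low counts, without serum 16 h, and without contact day 3.

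Its relatives shared the direction with smaller sizes. miR-376c-3p measured 2096 at 0 h, 434 at 12 h, 1401 at 16 h, 1001 at 20 h and 1646 at 24 h CPM in serum and 278 on day 0, 960.5 on day 3 and 1512 on day 5 in the contact series, a log2 change of 1.47 (SE 0.62, edgeR adjusted p = 0.419). miR-376b-3p measured 1551 at 0 h, 599 at 12 h, 1024 at 16 h, 829 at 20 h and 980.1 at 24 h CPM and 259 on day 0, 649.8 on day 3 and 734 on day 5, a log2 change of 1.11 (SE 0.53, edgeR adjusted p = 0.478). Serum 0 h was the highest serum library and contact day 0 the lowest of all 8 for both arms. miR-154-3p, from near the far end of the cluster, had the same order of extremes within each experiment, at 1126 at 0 h, 479.8 at 12 h, 602 at 16 h, 607 at 20 h and 363 at 24 h CPM and 174 on day 0, 393 on day 3 and 438 on day 5 (log2 change 1.18, SE 0.54, edgeR adjusted p = 0.461).

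The other direction was led by miR-485-3p. It measured 68.6 at 0 h, 315 at 12 h, 166 at 16 h, 589 at 20 h and 665 at 24 h CPM in serum and 429 on day 0, 154 on day 3 and 141 on day 5 in the contact series, so that all 3 G0 libraries lay below the other 5. These are counts at its annotated start, and its other starts are described later. Its log2 change was -2.12 (SE 0.81, edgeR adjusted p = 0.337), and -1.52 without serum 0 h (edgeR adjusted p = 0.837). DESeq2 called it with all libraries. miR-667-3p measured 767 at 0 h, 3635 at 12 h, 653 at 16 h, 3142 at 20 h and 3206 at 24 h CPM and 773 on day 0, 519 on day 3 and 203 on day 5 (log2 change -1.47, SE 0.67, edgeR adjusted p = 0.461), with serum 16 h below serum 0 h.

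Counting order alone, 7 of 54 members were above their growing counterparts in both experiments (background 11.7%): miR-154-3p, miR-376a-3p, miR-376b-3p, miR-376c-3p, miR-377-3p, miR-381-3p and miR-410-5p. Another 7 of 54 were below in both (background 10.3%): miR-323-3p, miR-329-3p, miR-369-5p, miR-410-3p, miR-485-3p, miR-541-5p and miR-543-3p. Over all 8 libraries, G0 lay wholly above the rest for 1 member, miR-410-5p (background 5.16%), and wholly below for 3, miR-369-5p, miR-485-3p and miR-541-5p (background 4.58%). These shares are close to the background. Some of the orders rest on few reads or near ties. miR-410-5p had 52 reads in all, with 3, 6 and 5 on contact days 0, 3 and 5. For miR-369-5p, contact day 5 (192.9 CPM) was barely below day 0 (193.3 CPM). An edgeR interaction term, which asks whether serum and contact G0 differ from growth by unequal amounts, called 0 of 54 members (0 of 349 miRNAs, 0%), and 2 members against 16 miRNAs (4.58%) had an unadjusted p under 0.05.

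During contact inhibition, 6 of 25 member arms were at least 2-fold higher on both day 3 and day 5 than on day 0, with both 95% exact conditional binomial intervals above 1 (background 19.8%), and 1 was at least 2-fold lower (background 8.64%). miR-376a-3p had 14 reads on day 0, 324 on day 3 and 517 on day 5, which is 14-fold (interval 8.22 to 25.9) on day 3 and 27-fold (15.9 to 49.7) on day 5. miR-299a-3p, whose values were 934 on day 0, 3280.4 on day 3 and 6257 on day 5 CPM, was 3.51-fold (3.02 to 4.11) and 6.70-fold (5.78 to 7.80) higher. miR-376c-3p was 3.45-fold (2.61 to 4.63) and 5.44-fold (4.14 to 7.26) higher. All 3 were higher on day 5 than on day 3.

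miR-369-3p, which measured 212 on day 0, 621 on day 3 and 848 on day 5 CPM, was 2.93-fold (2.12 to 4.13) and 3.99-fold (2.90 to 5.62) above day 0. miR-376b-3p was 2.51-fold (1.86 to 3.43) and 2.83-fold (2.10 to 3.88) higher, and miR-154-3p 2.25-fold (1.56 to 3.33) and 2.51-fold (1.73 to 3.72). The lower member was miR-409-3p, at 476 on day 0, 234 on day 3 and 196 on day 5 CPM, ratios of 0.491 (0.362 to 0.663) and 0.412 (0.293 to 0.576). With total-read scaling its day 3 ratio no longer passed 2-fold. With a read minimum of 300 in place of 100, 3 members were higher and none lower.

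Base composition moved with these ratios over all miRNAs. miRNAs with at most 40% G and C in their first 20 bases had a median log2 ratio of 0.56 for day 3 over day 0 and 1.19 for day 5 over day 0, and those with at least 55% had -0.32 and -0.61. Among members the medians were 0.79 and 1.28 at low and -0.23 and -0.44 at high G and C content. miR-376b-3p, miR-376c-3p, miR-154-3p and miR-369-3p have 25% to 40% and miR-376a-3p 45%, but miR-299a-3p has 55%. The part of base composition in the result was not tested.

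Between both contact G0 libraries, 6 of 24 arms were at least 2-fold higher on day 5 than on day 3 (background 21.4%) and 2 were lower (background 21.4%). miR-300-3p, counted at its annotated start, had the widest ratio. It went from 188.6 CPM on day 0 and 171.0 on day 3 to 1681 on day 5, 9.83-fold (7.51 to 13.1) above day 3. Among its full-length hairpin matches, 24 of 99 on day 3 (24.2%) and 271 of 417 on day 5 (65.0%) began at that start. The ratio therefore includes a change of 5′ end, and the size of that part was not tested. miR-411-5p was 4.78-fold (4.53 to 5.04), miR-329-5p 4.57-fold (3.34 to 6.36), miR-379-5p 3.90-fold (3.59 to 4.24), miR-411-3p 3.26-fold (2.90 to 3.67) and miR-409-5p 2.36-fold (1.72 to 3.26) higher. All of these except miR-300-3p and miR-409-5p come from the first hairpins of the cluster. Ratios of 0.392 (0.287 to 0.528) for miR-667-3p and 0.416 (0.309 to 0.554) for miR-495-3p marked the lower side. Fibroblast-enriched miRNAs summed to 44686 CPM on day 3 and 311956 on day 5. Within that list miR-199a-3p went from 25491 to 256494 CPM, but miR-214-3p from 5786 to 2009 and miR-145a-5p from 470.3 to 441. Their part in the result was not tested.

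In the serum experiment, 0 h exceeded each of the 4 released libraries by 2-fold or more for 2 of 39 arms (background 5%) and was below all 4 by as much for 3 (background 5%). miR-376a-3p was 12.6-fold (9.61 to 16.9) above 12 h, 2.10-fold (1.91 to 2.30) above 16 h, 3.47-fold (2.92 to 4.15) above 20 h and 4.57-fold (3.66 to 5.77) above 24 h. miR-329-5p had 206 reads at 0 h and 0 at 12 h, at least 64.0-fold higher when 3 reads are taken as the floor of the 12 h library, and was 3.27-fold (2.69 to 3.99) above 16 h. The levels of miR-329-5p were 672 at 0 h, 0 at 12 h, 205 at 16 h, 109 at 20 h and 151 at 24 h CPM.

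There were 3 arms that were lowest at 0 h by this rule. miR-323-3p measured 32.6 at 0 h, 549.9 at 12 h, 107 at 16 h, 186 at 20 h and 272 at 24 h CPM, from 10 reads at 0 h. Reads that start 1 base earlier are not in this count. They were 21 of 31 full-length hairpin matches at 0 h (67.7%) and 52 of 157 at 16 h (33.1%). Over all starts, 31 of 236645 miRNA reads at 0 h and 157 of 889044 at 16 h were less than 2-fold apart. miR-487b-3p measured 84.9 at 0 h, 438 at 12 h, 237 at 16 h, 208 at 20 h and 266 at 24 h CPM. For miR-485-3p, at its annotated start, the ratio of 0 h to the released libraries ran from 0.103 (0.0613 to 0.165) at 24 h to 0.414 (0.250 to 0.654) at 16 h. Its reads at other starts, described later, are not in these ratios. At a read minimum of 300, only miR-376a-3p remained on the higher side and no member on the lower.

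Position was read by dividing the 43 hairpins, in order, into 3 sections of near equal number. For day 5 over day 3, 9 of 10 arms in the first section were positive, with a median log2 ratio of 0.73, beside 0.42 for 6 arms in the middle and 0.15 for 8 in the last. For day 5 over day 0 the medians were 0.96, 1.96 and -0.31, and for day 3 over day 0 they were -0.44, 1.32 and -0.27. The last section held the lowest median in day 5 over day 0, where arms inside annotated Mirg had a median of -0.31 and those before it 1.36. In serum 0 h over 16 h the sections had -0.24, 0.35 and -0.19. Each section spanned both signs in all 4 of these comparisons.

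Neighbouring hairpins were compared by the arm with more reads. For day 5 over day 3 the median absolute difference between neighbours was 0.67, beside 1.09 over all pairs of member hairpins, and for day 5 over day 0 it was 1.25 beside 1.98. Day 3 over day 0 did not share that order, at 1.39 beside 1.22. In serum, neighbours were closer in 4 of 7 comparisons, such as 20 h over 16 h at 0.42 beside 0.76, and farther apart in the others, such as 0 h over 16 h at 0.90 beside 0.77. The clearest local run was Mir376c, Mir376b and Mir376a, at 13.7 to 14.7 kb from Mir379, whose 3p arms were all at least 2-fold above day 0. Mir667, the member next before them that passed the read minimum, lies at 10.9 kb, and its 3p arm was lower than on day 0 in both later libraries.

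**Figure D4:**
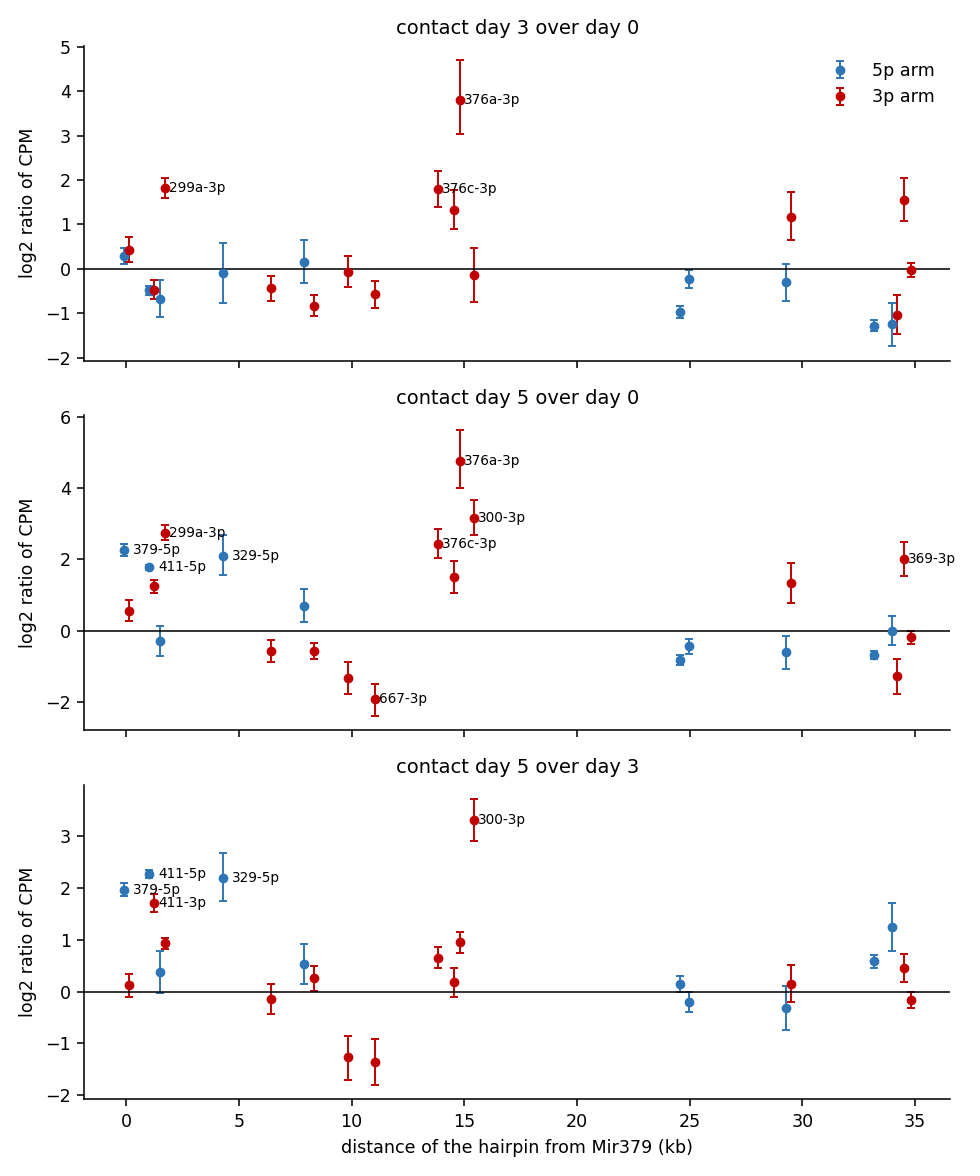
Log2 ratio of CPM (vertical axis) against the hairpin's distance from Mir379 in kb, for member arms with at least 100 reads in a compared library; blue is the 5p and red the 3p arm, bars are 95% exact conditional binomial intervals, and the arms farthest from 0 are named. In both upper panels miR-376a-3p, at 14.7 kb, is the highest arm. The 3p arms of miR-376b and miR-376c, from 13.7 kb on, lie above 0 there, as do arms of other hairpins. In the lowest panel the named arms near 0 kb lie above every arm at 24.7 to 34.7 kb.

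Few members share a seed. Among the 60 arms with reads, miR-379-3p and miR-411-3p share AUGUAAC, and miR-379-5p and miR-1193-5p share GGUAGAC. The first pair is shown to compare the full sequences.
miR-379-3p (chr12:109709102-109709123): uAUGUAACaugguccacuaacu
miR-411-3p (chr12:109710225-109710246): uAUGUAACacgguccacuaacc
miR-379-3p measured 832 at 0 h, 1439 at 12 h, 561 at 16 h, 589 at 20 h and 399 at 24 h CPM in serum and 703 on day 0, 949 on day 3 and 1030.1 on day 5 in the contact series. Both arms of that pair were highest of the serum series at 12 h and highest of the contact series on day 5, although miR-411-3p was below day 0 on day 3 and miR-379-3p did not. miR-1193-5p had 49 reads in all, too few to compare with miR-379-5p. The seeds of 4 other arms recur outside the cluster: miR-329-3p with miR-362-3p, miR-410-3p with miR-344d-3p, miR-1193-3p with miR-370-5p, and miR-134-3p with miR-3620-5p. Although they are called a family, miR-376a-3p (seed UCGUAGA) and miR-376b-3p (seed UCAUAGA) do not have identical seeds.

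The arm that gave more reads was not fixed. Among 25 member hairpins with at least 20 reads in every library, that arm changed between libraries in 9 (36%), beside 11 of 82 other hairpins (13.4%). The median span of the log2 ratio of 3p to 5p reads over libraries was 4.44 in members and 5.45 in the others. Mir299a was among the hairpins whose 3p share was higher on contact day 3 than on day 0 and higher again on day 5. Its 3p share was 56.5% at 0 h, 46.3% at 12 h, 53.1% at 16 h, 47.6% at 20 h and 62.1% at 24 h of serum, and 67.3% on day 0, 92% on day 3 and 94.4% on day 5 of contact inhibition. miR-299a-5p went from 452.7 CPM on day 0 to 285.0 and 368.6 while its partner was higher.

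Mir329 went the other way. Its 3p share was 43.3% at 0 h, 100% at 12 h, 78.8% at 16 h, 91.6% at 20 h and 87% at 24 h of serum and 42.1% on day 0, 37.8% on day 3 and 6.76% on day 5 of contact inhibition, so that serum 0 h and the contact libraries were below 50% and the released libraries above it. Mir369 had a 3p share of 74.1% at 0 h, 38.5% at 12 h, 68.2% at 16 h, 23.7% at 20 h and 41.5% at 24 h in serum and 52.3% on day 0, 78.4% on day 3 and 81.5% on day 5 in the contact series. Its 3 G0 libraries were the highest of the 8, but the intervals of serum 0 h (67.5 to 80.0) and 16 h (65.1 to 71.3) overlapped. How many other hairpins have this order was not counted.

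Mir411 had 3p shares of 47% at 0 h, 65.6% at 12 h, 36.8% at 16 h, 52.8% at 20 h and 49.3% at 24 h in serum and 18.2% on day 0, 18.4% on day 3 and 13.3% on day 5 in the contact series, with the contact libraries all lower. Among reads that match the hairpin over their full length, with any 5′ end, the shares were 28.3% at 0 h, 51.3% at 12 h, 21.3% at 16 h, 32% at 20 h and 31.8% at 24 h in serum and 10.2% on day 0, 10.6% on day 3 and 7.36% on day 5 in the contact series. All were lower by that count, 20 h was then below 50%, and the contact libraries were again the lowest 3. Mir379, its neighbour, had 24.3% at 0 h, 46.3% at 12 h, 14.2% at 16 h, 22.9% at 20 h and 18.3% at 24 h in serum and 28.9% on day 0, 30.9% on day 3 and 11.1% on day 5 in the contact series. For both hairpins 12 h was highest and contact day 5 lowest. The 12 h library, the least varied in reads, held the highest 3p share in 8 of the 25 member hairpins and 16 of the 82 others.

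**Figure D5:**
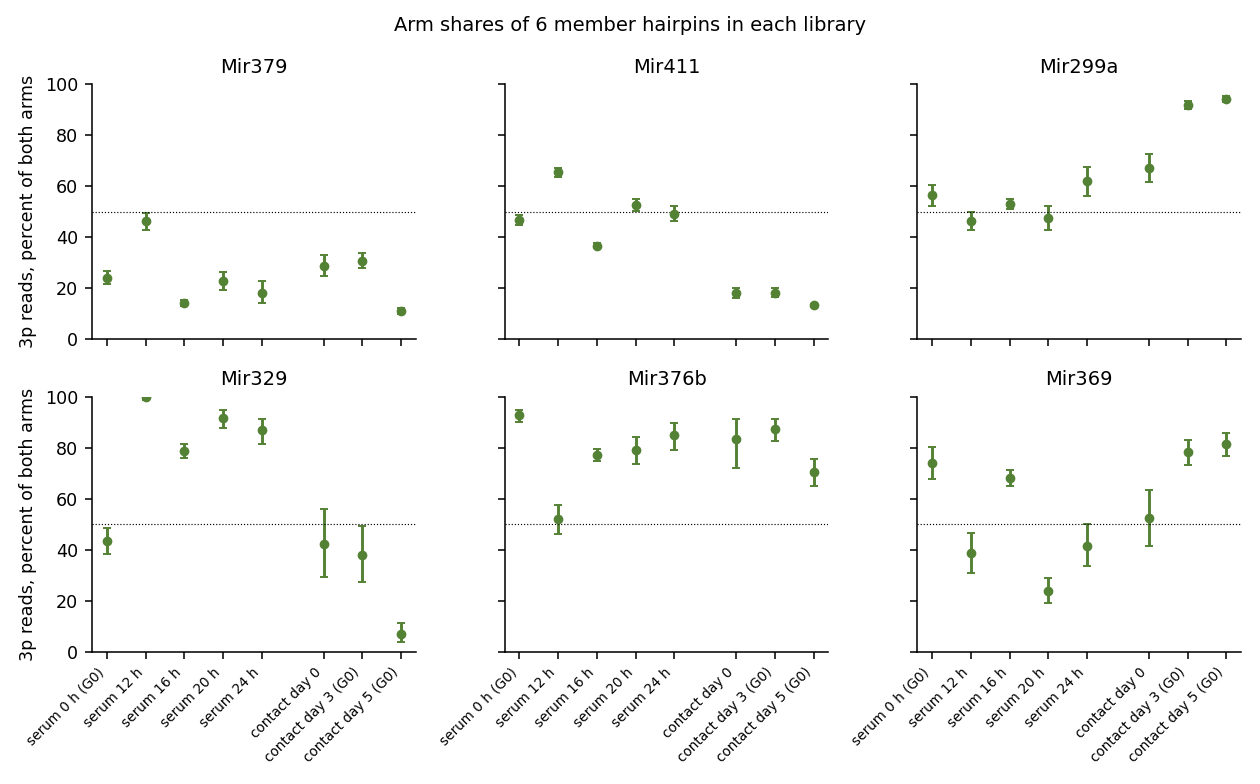
Percent of a hairpin's reads that come from its 3p arm (vertical axis) in each library for 6 members; bars are 95% exact binomial intervals and the dotted line is 50%. Mir299a reaches 94.4% on contact day 5, Mir329 is at 6.76% there, and Mir369 is highest in the 3 G0 libraries. For Mir369 the intervals of serum 0 h and 16 h overlap.

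Some member arms begin at another base than annotated, which changes their seed. Among 44 arms with at least 100 reads that match their hairpin, the commonest 5′ end differed from the annotation in 6, and 12 had a second start above 10%. The starts below are printed beside the annotated form, with the seed of each in capitals.
miR-382-3p (chr12:109733819-109733840): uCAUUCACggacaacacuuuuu
miR-382-3p, 2 bases earlier (chr12:109733817-109733838): aAUCAUUCacggacaacacuuu
miR-377-3p (chr12:109740553-109740574): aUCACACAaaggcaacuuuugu
miR-377-3p, 3 bases earlier (chr12:109740550-109740572): uGAAUCACacaaaggcaacuuuu
miR-496a-3p (chr12:109739165-109739186): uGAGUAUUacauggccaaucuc
miR-496a-3p, 2 bases later (chr12:109739167-109739187): aGUAUUACauggccaaucucc
miR-485-3p (chr12:109734946-109734967): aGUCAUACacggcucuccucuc
miR-485-3p, 1 base later (chr12:109734947-109734968): gUCAUACAcggcucuccucucu
miR-411-5p, 1 base earlier (chr12:109710189-109710210): aUAGUAGAccguauagcguacg

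miR-382-3p had 1 read at its annotated start and 5040 at the start 2 bases earlier, which held 96.2% of its hairpin-matching reads and 90.3% to 100% in each library. Counted there, it measured 2416 at 0 h, 1327 at 12 h, 2371 at 16 h, 1653 at 20 h and 1924 at 24 h CPM in serum and 910.1 on day 0, 698 on day 3 and 1454 on day 5 in the contact series. The 3p share of Mir382 was 0.0163% by annotated starts and 45.6% among full-length hairpin matches with any 5′ end. Counts by the annotation therefore left out nearly all reads of an arm as abundant as miR-410-3p in some libraries.

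miR-377-3p began 3 bases earlier in 58.6% of reads, and 25.9% were at the annotated start. At the earlier start it measured 751 at 0 h, 844 at 12 h, 869 at 16 h, 552 at 20 h and 696 at 24 h CPM in serum and 274 on day 0, 599 on day 3 and 424 on day 5 in the contact series, and serum 0 h was no longer the highest serum library. At the annotated start it had measured 532 at 0 h, 0 at 12 h, 439.7 at 16 h, 177 at 20 h and 42.3 at 24 h CPM in serum. miR-496a-3p began 2 bases later in 62.7% of reads. miR-485-3p began 1 base later in 50.9% of reads, and at that start its levels were 150.2 at 0 h, 1093 at 12 h, 228 at 16 h, 734 at 20 h and 684 at 24 h CPM and 222 on day 0, 42.8 on day 3 and 55.1 on day 5. The G0 libraries were the lowest 3 of the 8 at that start too. A start 3 bases later, in neither count, held 66 of 126 reads at serum 0 h (52.4%) and 124 of 404 at 16 h (30.7%). Over all starts, serum 0 h had 126 of 236645 miRNA reads and 16 h had 404 of 889044. Serum 0 h was then not below 16 h.

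miR-411-5p, the most abundant member, began 1 base earlier in 25.3% of reads, a form with the seed UAGUAGA. That share ran from 19.9% to 27.4% over the 8 libraries. None of the 441 mature miRNAs with at least 10 reads has, at its annotated start, the shifted seeds listed for these 5 arms. A shifted form of miR-543-5p, 1 base earlier in 25.1% of its 279 reads, has the seed AAGUUGC of miR-495-5p.

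miR-376a-3p stood apart in length. Its commonest read was 19 bases, 37.7% of the 8048 reads at the annotated start that match the hairpin over their full length. Of all 8361 reads that begin with its first 18 bases, 63.2% were 18 or 19 bases long, and counting by 20 bases kept 3065. Such short reads made up 54.1% at serum 0 h, 74.2% at 12 h, 61.8% at 16 h, 68.5% at 20 h and 64.9% at 24 h, and 70.8%, 67.4% and 68.6% on contact days 0, 3 and 5. The 0 h library thus held the smallest part of short reads. Counted by 18 bases, miR-376a-3p took 0.665% of miRNA reads at serum 0 h, 0.102% at 12 h, 0.334% at 16 h, 0.262% at 20 h and 0.177% at 24 h, and 0.0145%, 0.222% and 0.351% on contact days 0, 3 and 5. Serum 0 h stayed highest and contact day 0 lowest by this count, but 0 h was no longer 2-fold above each released library.

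A-to-G differences from the reference, as a sequencer reads inosine left by A-to-I editing, were counted at 236 A positions of member arms with at least 100 reads, numbered from the 5′ end of the mature arm. The median position had 0.0228% G. Members exceeded 1% at 3 positions of 236, and all other miRNAs at 3 of 1139, with a maximum of 22.3%. The highest in the cluster was miR-376b-3p A6G, inside the seed, in 177 of 2691 reads (6.58%, 95% exact interval 5.67 to 7.58). miR-376c-3p A6G, at the same place in the sister arm, reached 48 of 3547 (1.35%, 1.0 to 1.79).

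By library, miR-376b-3p A6G was 7.59% at serum 0 h, 0% at 12 h, 10.1% at 16 h, 2.66% at 20 h and 0% at 24 h, and 1.79%, 2.56% and 4.91% on contact days 0, 3 and 5. Of its 177 reads, 115 came from serum 16 h and 39 from serum 0 h, and 6 of the 8 libraries held at least 1. miR-376a-3p, which also has an A at position 6, had 0 A6G reads of 3065, an upper limit of 0.120%. The third position over 1%, miR-377-3p A10G, had 13 reads of 752, of which 10 came from serum 24 h. A-to-G over all positions was 0.0852% in members and 0.0632% in other miRNAs. A-to-T, which editing does not make, was also higher in members (0.0699% and 0.0367%), and A-to-C, which it does not make either, was not (0.0930% and 0.0990%). Other changes higher in members were G-to-A (0.0971% and 0.0658%) and C-to-A (0.294% and 0.165%). Smaller differences the same way were in G-to-T (0.130% and 0.113%), G-to-C (0.0780% and 0.0729%) and C-to-T (0.0714% and 0.0700%). C-to-G and every change from T were lower in members. No genomic reads of these cells were used here, so whether the differences arise in DNA, RNA or sequencing was not tested.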

How the data were processed

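Small RNA was sequenced in 8 libraries of NIH-3T3 cells, 1 per condition. The deposited files list distinct reads of 36 bases with their read counts, and the sequencing adapter is still on them. For library preparation the labels point to an earlier publication. Which aligner, caller and genome build the authors used is not given in the sources used here. Members and lists were chosen with earlier results of these data known.

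The adapter was trimmed where at least 6 of its bases matched, with 1 mismatch allowed per 8 bases, and inserts of 16 to 30 bases were kept. An insert was counted for a mature arm when its first 20 bases were those of the arm. Mature sequences of 70 member arms came from RefSeq (GRCm38.p6). For the other 4 (miR-376c-3p, miR-487b-3p, miR-485-5p and miR-539-3p) the commonest read on the hairpin served. Hairpin positions came from GENCODE M21. Across all miRNAs, 31 arms also found in other RNA classes were left out. Columns of other samples numbered 0.

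The G0 test was edgeR's quasi-likelihood test with TMM scaling and experiment as a term, on the 349 miRNAs with at least 10 CPM in at least 3 libraries, and p-values were adjusted over all 349 by the Benjamini-Hochberg method at a threshold of 0.05. The libraries stand in for replicates across time points and experiments, so these p-values measure the spread between libraries, which may be technical. Single libraries were compared by exact conditional binomial intervals (95%), for arms with at least 100 reads in a compared library, and called at 2-fold. With 0 reads, 3 reads served as the floor. Arm shares needed 20 reads in every library, and base differences 100 reads. The pseudocount for log2 levels was 0.5 reads. The count test was run on simulated data with large changes and a single fixed spread between libraries. That run does not give its power at the spread of these libraries. Alternatives were DESeq2, other scalings, read minimums, fold limits and counting rules, and leaving out each library.

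Named members were the 10 with the highest mean level, called members (at most 5 per direction and comparison), arms sharing a seed and hairpins whose commoner arm changed. miR-154-3p in the contact series, and the arms named for shifted starts, length or base differences, were chosen after their values were seen. Tools were R 4.3.3 with edgeR 4.0.16, limma 3.58.1 and DESeq2 1.42.0, and Python 3.11.15 with matplotlib 3.10.9, pandas 2.3.3, scipy 1.17.1 and numpy 2.4.6.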

Additional observations from a re-analysis of the deposited data

How the results depend on the processing

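No paired analysis was possible because each condition is 1 library with no replicate. No called result reversed, but with total-read scaling the member median turned sign for contact day 3 over day 0 (-0.15 to 0.16) and serum 16 h over 0 h (0.10 to -0.10). The cause of each change below was not tested. The number of members that passed the G0 test, 0 with edgeR, was 2 with DESeq2 (miR-376a-3p, adjusted p 0.00316, and miR-485-3p, 0.0342; 17 of all 349 miRNAs), 1 without the filter on low counts, 1 with total-read scaling, and 0 to 1 when single libraries were left out. The edgeR log2 change of miR-376a-3p ran from 1.85 without contact day 0 (adjusted p = 0.505) to 4.36, and was 1.68 without the experiment term. The interaction called 0 members in every fit, and could not be fitted without serum 0 h or contact day 0.

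Members higher in both contact G0 libraries, 6, numbered 3 of 13 at a read minimum of 300 (17 of 99 miRNAs) and 6 to 11 when a library was left out (11 of 24 without day 3, where 58 of 154 miRNAs, 37.7%, were called). Those lower, 1, numbered 0 with total-read scaling, 2 with DESeq2 size factors, 2 at a minimum of 20, 0 at 300, 3 at 1.5-fold, and 2 to 3 when a library was left out. For day 5 over day 3, the 6 higher became 15 at a minimum of 20 and the 2 lower became 0 at 300. Members higher at serum 0 h, 2, numbered 1 at 300, 1 with 18 bases, 5 at 1.5-fold, and 2 to 3 when a library was left out. Those lower, 3, numbered 0 at 300, 5 at 1.5-fold and 3 to 6 (6 without 16 h). Leaving out contact day 0 or serum 0 h removes its own comparison. Read minimums, fold limits and scalings also change how many of all miRNAs are compared or called. Counts given here without a background therefore do not show a gain or loss particular to the cluster.

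The cluster's share at 0, 12, 16, 20 and 24 h was 5.92%, 6.57%, 4.93%, 5.53% and 5.47% with 18 bases, and 6.49%, 7.20%, 5.56%, 5.85% and 5.75% with any read on the hairpin. On contact day 0 it was 2.86% by the hairpin, on day 3 2.68% with 18 bases and 3.14% by the hairpin, and on day 5 4.58% and 5.32%. DESeq2 scaling moved the median of all miRNAs by -0.29 for day 5 over day 0. Counted by full-length hairpin matches with any 5′ end, a change of both rules, the 3p share of Mir411 over all libraries was 19%, beside 32.9%. The variance in the members' mean serum profile, 1.88%, was 0.871% without 12 h, an alternative chosen after seeing the data. Arms with few reads can be missed: 12, 7, 19 and 12 of 60 arms had no read at 24, 20, 12 and 0 h of serum. The 12 h and 0 h libraries had more miRNA reads than those of 20 and 24 h. The part of depth in these counts was not tested.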

Other observations

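Of the Dlk1-Dio3 arms before the cluster, 4 of 10 were at least 2-fold higher on contact day 5 than on day 3 and 1 was lower, beside 6 and 2 of the 24 cluster arms with enough reads. Over all 159 miRNAs compared, 21.4% were higher and 21.4% lower.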
